A study of Homo sapiens with 12 samples.

Results

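The ribosome biogenesis genes examined here are 50 genes for proteins that transcribe, fold, modify and trim ribosomal RNA, among them subunits and factors of RNA polymerase I. They were chosen by name, from knowledge of the pathway, as rows of both deposited expression tables, and all 50 of the 50 were found among 23615 rows. All 12 libraries came from HEK293T, an established line of human embryonic kidney origin transformed with SV40 large T antigen. Cells received for 18 h either 2 μM CP25, a macrocyclic compound that the labels name as an inhibitor of the mRNA decapping enzyme Dcp2, or the vehicle. Actinomycin D at 5 μg/mL then blocked transcription, and RNA was taken at 0 h or 2 h. Each of the 4 groups, vehicle and CP25 at 0 h and again at 2 h, has 3 libraries. The labels number the libraries 1 to 3 in each group without saying whether a number stands for its own culture. The p-values below therefore describe spread among these libraries, and that spread may be technical only. The comparison the study set up is whether CP25 changed mRNA levels before the block or what was left of them after it.

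RNA polymerase I transcribes a single long precursor of ribosomal RNA in the nucleolus, where UBTF and the SL1 complex bind the promoter and RRN3 brings the polymerase to it. Small nucleolar ribonucleoproteins then modify the precursor, and a large assembly called the small subunit processome folds and cuts it, after which the 40S and 60S precursors mature separately and leave the nucleus. Genes of this pathway are textbook targets of MYC, and rapidly growing lines such as HEK293T express them at high levels. The proteins are read here only through their mRNAs, which RNA polymerase II makes and whose cap the decapping enzymes can remove.

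Values are FPKM, fragments per kilobase of transcript scaled to library size, so levels can be set side by side between genes per length. From the lowest FPKM values, the 0 h libraries were estimated to hold 13.1 to 21.8 × 10⁶ fragments each, and the 2 h libraries 21.8 to 29.3 × 10⁶. By this estimate the member with the fewest fragments, RRP9, had 400 to 780 of them. As a check of the block, MYC stood at 9.83% of its 0 h level in vehicle and 10.0% in CP25, and IER2 at 21.0% and 21.8%. Of 6 HEK293T markers, VIM stood at 189 FPKM, KRT18 at 36.0, CDH2 at 30.2, NEFM at 7.96, KRT8 at 2.76 and PAX2 at 1.85 in vehicle at 0 h. Of 7 markers of other cells, 6 stood below 1 FPKM, with the T cell marker CD3E and the keratinocyte marker KRT5 listed at 0, and the fibroblast collagen COL1A1 stood at 3.51 FPKM.

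The libraries of 1 number deviated together for these genes. In the libraries numbered 1 at 0 h, 41 of the 50 mRNAs in vehicle and 38 in CP25 were at the lowest of the 3 values of their group, against 48.0% and 41.2% of all genes. In those numbered 2 at 2 h, 44 of the 50 in vehicle and 40 in CP25 were at the highest value, against 40.7% and 40.8% of all genes. Averaged over the treatments, the median member in the libraries numbered 2 at 2 h lay 0.15 above its group mean on the log2 scale, with UTP20 the highest at 0.41. TAF1D went the other way in both sets, at 0.26 above its group mean in the libraries numbered 1 at 0 h and at -0.10 in those numbered 2 at 2 h. Across the 50 members the deviation in the libraries numbered 2 at 2 h went with transcript length, with Spearman's rho 0.46, against 0.25 over 10839 genes. The FPKM values of the libraries did not add up to equal sums. The vehicle and CP25 libraries numbered 1 at 0 h had sums of 442719 and 451136. In the other 0 h libraries the sums ran from 498901 to 502915. At 2 h they ran from 497856 to 519497, apart from 600826 in the CP25 library numbered 3. All of these are descriptions over genes that share libraries, and the parts of length and of the sums in the results were not tested. Without the libraries numbered 2 at 2 h, the percentage of the 0 h level was lower for 46 of 50 members in vehicle and 42 in CP25, the largest changes being -12.2 and -17.4 percentage points, both for UTP20, and 4 and 7 members changed sides of 100%. Without those numbered 1 at 0 h it was lower for 44 and 47 members, the largest changes being -9.73 points for FBL and -11.5 points for NPM1, and 5 and 4 members changed sides. Values without these libraries are given below for the counts against all genes, the medians of roles and several of the members that moved. Both settings were added after the data had been seen.

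**Figure D1:**
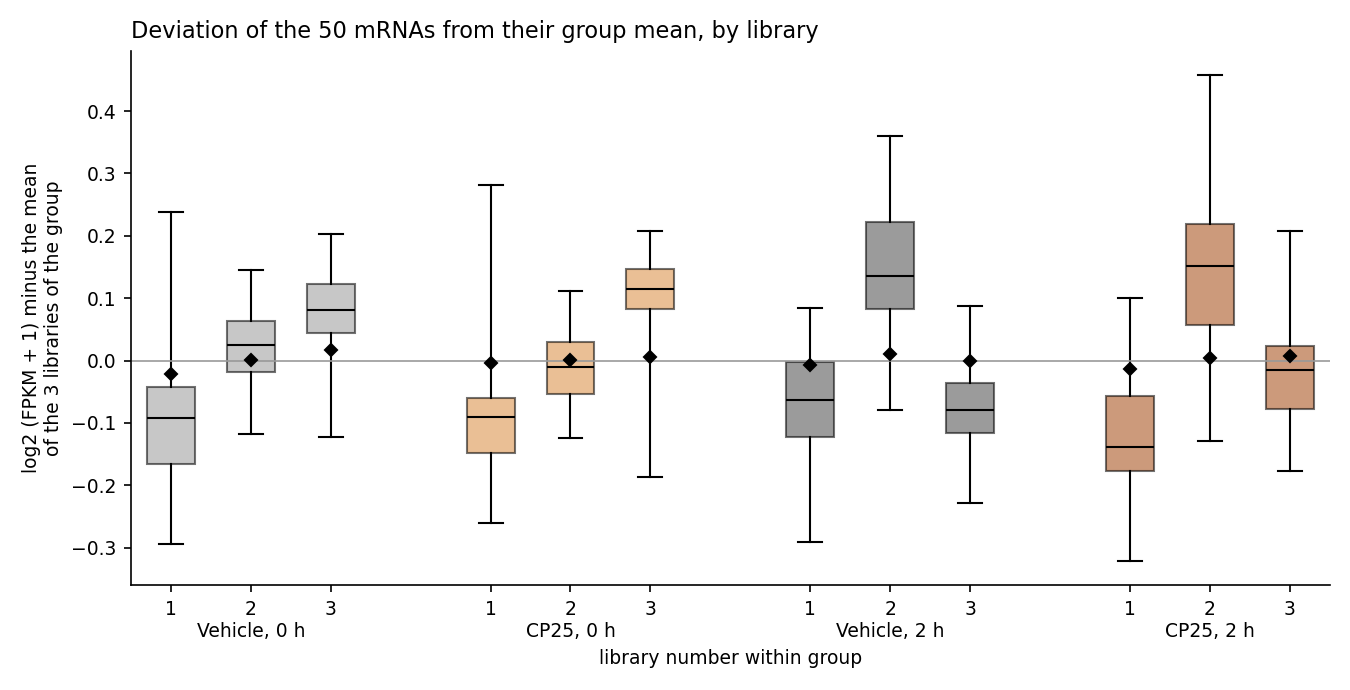
Deviation of the 50 mRNAs from their group mean in each of the 12 libraries, as log2(FPKM + 1) minus the mean of the 3 libraries of the group. Boxes span the middle 50% of the members with a line at the median, whiskers reach the lowest and highest member, and diamonds mark the median of all genes. The members lay low in the libraries numbered 1 at 0 h and high in those numbered 2 at 2 h in both treatments, while the diamonds stayed near zero.

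Before the block these mRNAs were abundant. The median member stood at 56.3 FPKM over the 6 libraries at 0 h, against 12.9 FPKM for the 12183 genes whose average over all libraries reached 1 FPKM. All 50 members passed that filter. In bulk RNA, fewer cells with an mRNA and less of it per cell cannot be told apart. The range ran from 15.9 FPKM for UTP20, a scaffold protein of the small subunit processome, to 2322 FPKM for NPM1, the histone chaperone nucleophosmin. NCL, the RNA-binding protein nucleolin, and FBL, the methyltransferase fibrillarin, followed NPM1 in the order. UTP15, a processome subunit, and RRP12, a factor of 40S export, stood next to UTP20 at the low end.

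The 2 h libraries were set against the 0 h libraries as a description without a test, because the times were deposited as separate tables. Because FPKM is relative to library size, a value above 100% of the 0 h level says only that an mRNA declined less than the bulk of transcripts, as far as transcription was blocked. The median ratio over all genes was -0.18 in vehicle and -0.16 in CP25 on the log2(FPKM + 1) scale, which is the level that members are read against. The members' median was -0.05 in both treatments, or 0.13 above all genes in vehicle and 0.11 in CP25. This distance depended on which low genes were counted, at 0.0041 in vehicle and -0.01 in CP25 without the filter on low values and at 0.07 and 0.06 with a filter at 5 FPKM. It was 0.07 in each treatment without the libraries numbered 2 at 2 h, and 0.07 and 0.05 without those numbered 1 at 0 h.

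Members were found on both sides of the bulk. In vehicle 19 of 50 members had all 3 libraries at 2 h below all 3 at 0 h, against 46% of all genes, and 10 had all 3 above, against 15%. In CP25 the counts were 15 lower, against 44% of genes, and 9 higher, against 15.5%. In both treatments 14 were lower, against 39.5% of genes, and 8 were higher, against 11.6%. A log2 ratio below -1 was reached by 1 member in each treatment, RRS1, against 7.26% of genes in vehicle and 7.22% in CP25. A ratio above zero was found for 20 members in vehicle, against 32% of genes, and for 23 in CP25, against 34.1%. With each library centred on its median the counts became 35 and 34. Centring also moved the median of all genes above zero, to 0.17 in both treatments. The share of all genes above zero was not taken after centring, so the centred counts cannot be set against the shares above. Read against the median of all genes, 18 members lay below it in both treatments, 29 lay above it in both, and POLR1E, UTP20 and RRN3 lay on different sides in vehicle and CP25. Without the libraries numbered 2 at 2 h, 21 lay below it in both treatments, these 3 included, 28 lay above and NIP7 differed. Without those numbered 1 at 0 h, 18 lay below and 29 above, and TAF1D, UTP20 and RRN3 differed. The 2 treatments gave nearly the same order of members, with Spearman's rho 0.97 between their ratios over the 50 genes and 0.93 over all 12183. Pearson's r was 0.99 and 0.86. The 3 libraries of each group are shared by all points.

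**Figure D2:**
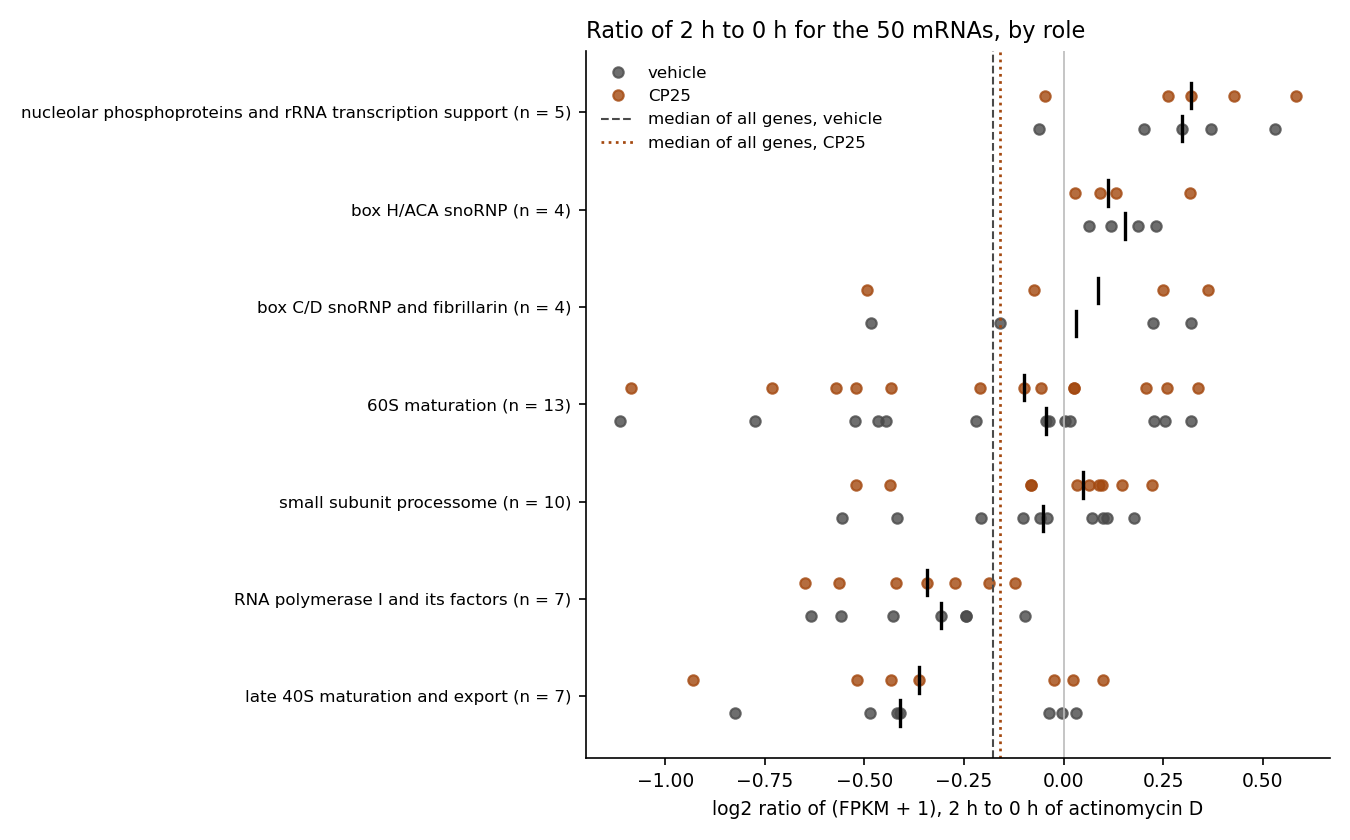
Log2 ratio of (FPKM + 1) at 2 h to 0 h of actinomycin D for the 50 mRNAs, by role, in vehicle (grey) and CP25 (brown). Points are genes, black bars are the median of a role, and the dashed and dotted lines mark the median of all genes, -0.18 in vehicle and -0.16 in CP25. RNA polymerase I factors and late 40S factors lie mostly below those lines, and nucleolar phosphoproteins and box H/ACA proteins above them.

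RNA polymerase I and its factors held the largest share of members below the bulk. Of 7 mRNAs, 6 lay below the median of all genes in vehicle and 6 in CP25, with RRN3 the exception in vehicle and POLR1E in CP25. Both exceptions rested on the libraries numbered 2 at 2 h, without which all 7 lay below in both treatments. Without those numbered 1 at 0 h the exceptions were RRN3 in vehicle and TAF1D in CP25. POLR1A, the largest catalytic subunit, measured 26.3, 26.8 and 28.7 FPKM in the vehicle libraries numbered 1, 2 and 3 at 0 h and 16.8, 24.3 and 19.4 at 2 h. With CP25 it measured 24.6, 25.2 and 28.99 at 0 h and 16.3, 24.8 and 17.8 at 2 h. The vehicle groups did not overlap, whereas with CP25 the library numbered 2 at 2 h reached into the 0 h range. POLR1A stood at 74.1% of its 0 h level in vehicle and 74.7% in CP25, or at 66.5% and 64.9% without the libraries numbered 2 at 2 h.

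POLR1B, the other large catalytic subunit, lay lower at 2 h in every library of both treatments. Its vehicle values were 30.3, 32.4 and 34.4 FPKM at 0 h and 19.0, 23.7 and 22.5 at 2 h. Its CP25 values were 29.8, 32.4 and 34.8 at 0 h and 19.7, 23.4 and 21.6 at 2 h. That is 67.1% of the 0 h level in vehicle and 66.7% in CP25. POLR1C, a subunit that RNA polymerases I and III share, was the lowest of the role at 63.6% and 63.0%. It read 40.4, 47.0 and 45.5 FPKM in vehicle at 0 h against 27.5, 30.6 and 26.5 at 2 h, and 42.1, 43.5 and 45.2 with CP25 against 26.1, 28.8 and 27.5, with no overlap in either treatment.

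POLR1E, a subunit of the polymerase's peripheral subcomplex, stood at 84.2% in vehicle and 92.2% in CP25. Vehicle gave 43.3, 44.8 and 46.1 FPKM at 0 h and 35.9, 40.9 and 36.2 at 2 h, and CP25 gave 41.3, 42.5 and 47.4 against 35.5, 46.4 and 38.9. The groups overlapped only with CP25, through the library numbered 2 at 2 h, and without the libraries of that number POLR1E stood at 80.6% and 85.1%.

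Of the factors that act at the promoter, TAF1D, a subunit of SL1, differed most between libraries of 1 group. At 0 h it was at 50.1 FPKM in the vehicle library numbered 1 and at 38.9 and 38.8 in the others, and with CP25 at 51.4 against 39.4 and 36.9. At 2 h the values drew together, at 35.2, 32.1 and 34.7 in vehicle and 37.3, 31.7 and 35.4 with CP25. It stood at 79.8% and 81.7%, and at 87.5% and 91.2% without the libraries numbered 1 at 0 h.

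UBTF, the factor that bends promoter and gene body DNA, measured 48.6, 46.2 and 48.1 FPKM in vehicle at 0 h and 35.2, 46.9 and 38.9 at 2 h. With CP25 it measured 48.9, 45.6 and 51.5 at 0 h and 33.0, 44.1 and 38.2 at 2 h. Only the CP25 groups were apart, and the library numbered 2 was the highest at 2 h in both. RRN3, which links the polymerase to SL1, gave 26.2, 26.2 and 25.5 FPKM in vehicle at 0 h, 22.4, 28.9 and 22.0 at 2 h, and with CP25 26.8, 26.5 and 28.3 against 21.4, 28.6 and 21.9. The libraries numbered 2 at 2 h were above every 0 h library of their treatment, and the other 2 h libraries were below, so the 94.0% and 88.0% of RRN3 became 85.4% and 79.6% without them. The tables also list the pseudogenes RRN3P1 at 1.53 FPKM, RRN3P2 at 0.12 and RRN3P3 at 0.98 in vehicle at 0 h, and no source used here says how fragments were split between them and RRN3.

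The other polymerase I genes, a list of 8, spread more widely. Their median ratio was -0.20 in vehicle and -0.27 in CP25. Set against the median of all genes this is -0.03 and -0.11, next to -0.13 and -0.18 for the 7 mRNAs of the role. TAF1C, a subunit of SL1, stood at 56.2% and 54.8%, and CD3EAP, a polymerase I subunit, at 54.99% and 60.3%. POLR1D, shared with polymerase III, and TWISTNB, a polymerase I subunit, stood at 95.6% and 95.8% in vehicle and at 99.3% and 100% in CP25. Subunits of RNA polymerase III had a median of -0.19 and -0.20 over 11 genes, and those of RNA polymerase II 0.12 and -0.02 over 12 genes. As deposited, all 7 ratios of the RNA polymerase I role were below zero in both treatments. Centring each library on its median turned 4 of them, POLR1E, TAF1D, UBTF and RRN3, above zero in vehicle and all of these except UBTF in CP25. The median of all genes moved above zero as well, from -0.18 to 0.17 in vehicle and from -0.16 to 0.17 in CP25. These signs therefore depend on the scaling.

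**Figure D3:**
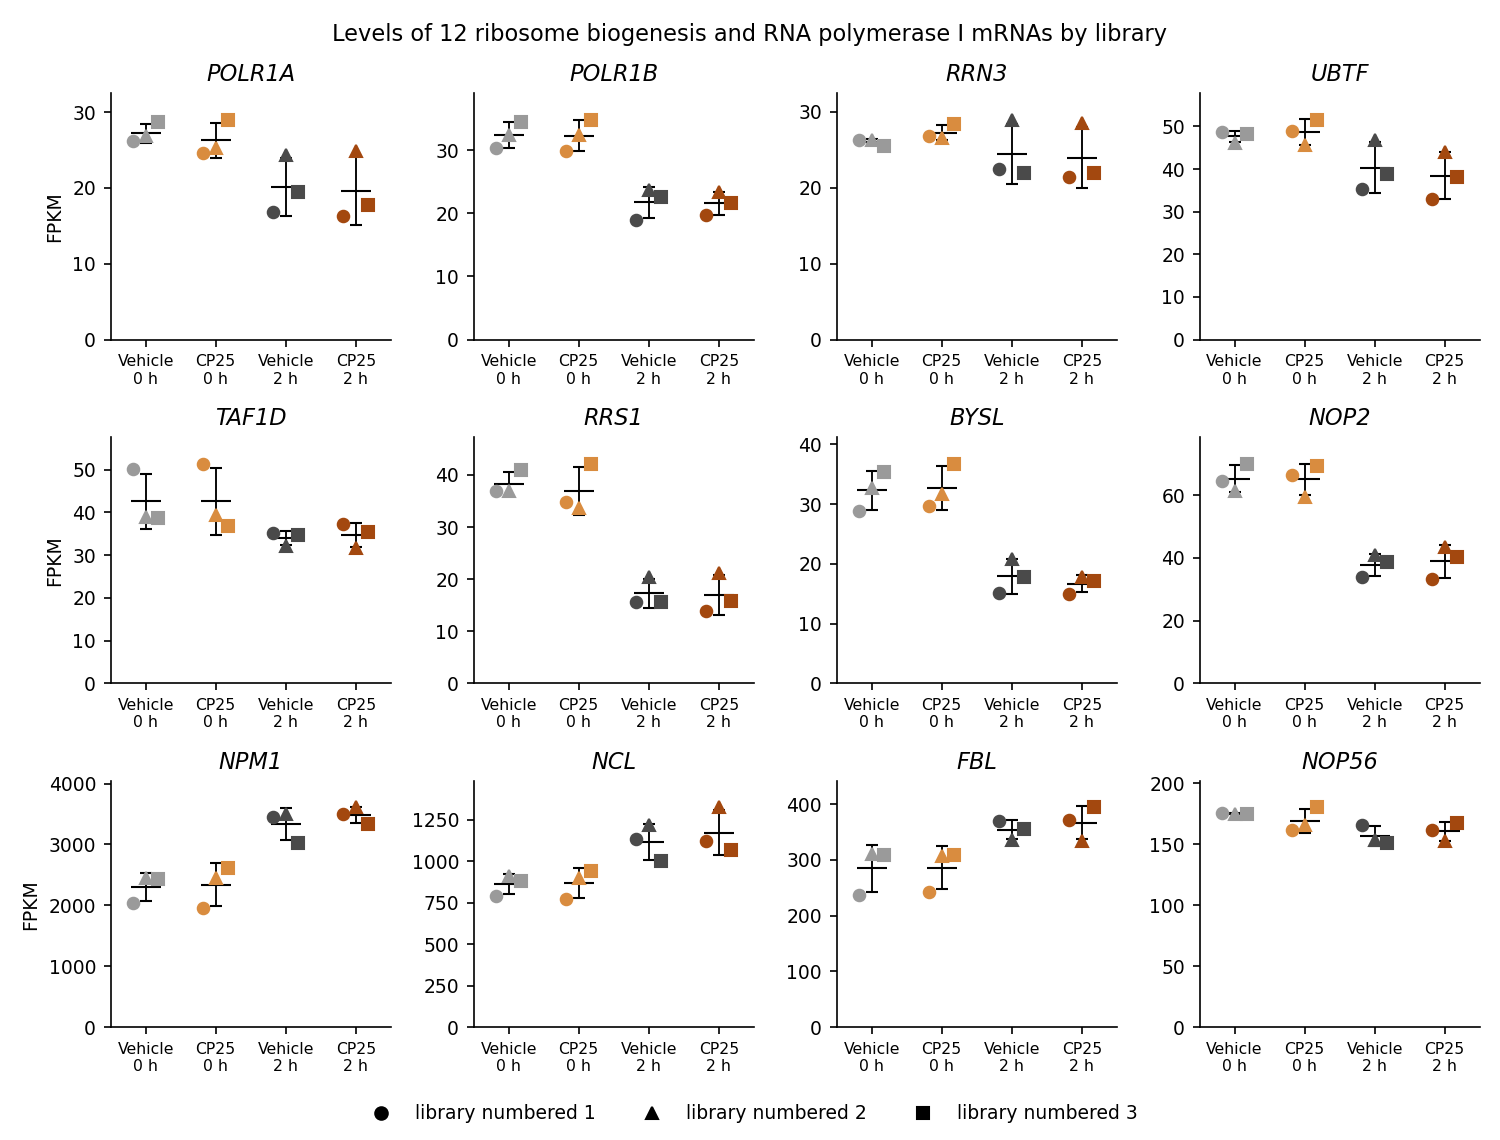
FPKM of 12 of the mRNAs in every library of the 4 groups, on linear axes that start at 0. Markers show the library number, and the bars give the mean and SD of 3 libraries. RRS1, BYSL and NOP2 lie lower at 2 h in every library, NPM1, NCL and FBL higher, and the triangle of the libraries numbered 2 is the highest at 2 h for POLR1A, RRN3 and UBTF.

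Nucleolar phosphoproteins lay at the other end. None of 5 was below the median of all genes in either treatment, and their median ratio was 0.30 in vehicle and 0.32 in CP25. NPM1 measured 2041, 2445 and 2430 FPKM in the vehicle libraries at 0 h and 3459, 3501 and 3027 at 2 h. With CP25 it measured 1949, 2454 and 2616 at 0 h and 3493, 3608 and 3342 at 2 h. All 2 h libraries were above all 0 h libraries in both treatments, and the level stood at 144% and 149% of that at 0 h. NCL, which binds the nascent precursor, went from 792, 913 and 881 FPKM to 1132, 1215 and 1000 in vehicle, and from 770, 897 and 940 to 1119, 1323 and 1068 with CP25. This is 129% and 135% of the 0 h level, with no overlap. NPM1 and NCL have processed pseudogenes elsewhere in the genome, so their absolute levels depend on how the authors' counting treated fragments that match several places.

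NOLC1, a chaperone of small nucleolar ribonucleoproteins, stood at 123% and 125%. Its vehicle libraries read 82.7, 100.5 and 100.1 FPKM at 0 h and 114.9, 125.0 and 108.2 at 2 h, and its CP25 libraries 84.0, 98.5 and 99.7 against 112.6, 129.7 and 110.8, again without overlap. DDX21, a helicase that works with polymerases I and II, stood at 116% and 121%. TCOF1, the treacle protein that holds UBTF at ribosomal DNA, stood at 95.6% and 96.8%. The groups of the last 2 genes overlapped.

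The first bases of the mRNA are shown for the 6 members whose annotated start is a C followed by at least 4 pyrimidines, the form known from mRNAs of the translation machinery with a 5′ terminal oligopyrimidine tract. RefSeq start sites (GRCh38.p14) could be matched for 40 of the 50 members, and a member with several starts was counted if any had this form. These 6 are 15% of the 40, against 7.69% of the 8933 genes tested that have an entry. The run of pyrimidines at the start is in capitals, the sequence is the strand of the mRNA, and the genome position of the 30 bases follows in the next paragraph.
NPM1: CTTTCCCTggtgtgattccgtcctgcgcgg
FBL: CTTTTCCacgtgcgaaagccccggactcgt
DDX21: CTCTTCCTCTCCacgcggttgagaagaccg
EBNA1BP2: CCTCCCCCggggtcctcctccgcgccaccc
TAF1D: CCTTTTCTTCCgcacggttggaggaggtcg
NOB1: CTCTCacgcagccaacatggctccagtgga

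These bases lie at chr5:171387849-171387878 on the plus strand for NPM1, chr19:39846350-39846379 on the minus strand for FBL, and chr10:68956170-68956199 on the plus strand for DDX21. Those of EBNA1BP2 lie at chr1:43172541-43172570, of TAF1D at chr11:93741466-93741495 and of NOB1 at chr16:69754897-69754926, all on the minus strand. NPM1, DDX21 and EBNA1BP2 have an additional annotated start without the tract. The median ratio of 2 h to 0 h was 0.26 in vehicle and 0.30 in CP25 for the 6, and -0.05 and -0.07 for the 34 with other starts. NPM1, FBL, EBNA1BP2 and DDX21 were above zero in both treatments and TAF1D and NOB1 below, so the form did not go with 1 direction. The start was read from the annotation, not from these libraries, and this comparison was chosen after the ratios had been seen.

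Box C/D proteins, which carry the RNA 2′-O-methylation machinery, divided. FBL, its methyltransferase, measured 237, 310 and 309 FPKM in vehicle at 0 h and 370, 336 and 356 at 2 h, and with CP25 242, 307 and 309 against 372, 335 and 394. Each 2 h library was above each 0 h library, and the level stood at 124% and 128%. NOP58, a core protein, stood at 117% and 119%, also without overlap. NOP56, the core protein that pairs with it, gave 176, 175 and 175 FPKM in vehicle at 0 h and 166, 154 and 151 at 2 h, or 89.5%, and with CP25 162, 166 and 180 against 162, 152 and 168, or 94.9%. The groups of NOP56 were apart in vehicle and overlapped with CP25. RRP9, which binds the U3 small nucleolar RNA, was low in every 2 h library, at 70.0% and 69.8%.

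Box H/ACA proteins, which carry the pseudouridine machinery, all lay above the median of all genes in both treatments, also without the libraries numbered 2 at 2 h or those numbered 1 at 0 h. With all libraries the 4 stood above 100%. DKC1, the pseudouridine synthase, measured 109, 118 and 120 FPKM in vehicle at 0 h and 124, 151 and 123 at 2 h, and with CP25 112, 119 and 130 against 116, 153 and 119. The vehicle groups did not overlap, and the CP25 groups did. It stood at 114% and 107%, and at 106% and 97.4% without the libraries numbered 2 at 2 h. GAR1 stood at 119% and 125%, NOP10 at 104% and 110% and NHP2 at 108% and 101%, all of them small proteins of the same complex. Without the libraries numbered 1 at 0 h NOP10 was at 94.5% in vehicle and NHP2 at 93.3% in CP25. For NHP2, 43.8% of the transcript is overlapped by exons of RMND5B on the opposite strand in GENCODE 29, and no source used here says whether counting used strand.

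Small subunit processome members lay mostly above the median of all genes, with 7 of 10 above it in both treatments. Below it lay 3 of 10 in vehicle and 2 in CP25, and the median of the role was 0.13 and 0.21 above all genes. WDR43, a subunit that joins the precursor early, was the lowest at 68.1% and 69.6%, with every 2 h library below every 0 h library. UTP15, from the same early subcomplex, measured 18.0, 17.5 and 19.7 FPKM in vehicle at 0 h and 12.3, 16.0 and 12.5 at 2 h, and with CP25 18.0, 17.4 and 20.9 against 10.99, 17.2 and 13.1. Its groups did not overlap, and it stood at 73.8% and 73.4%. WDR75, another member of that subcomplex, stood at 95.9% and 102%, from 51.9, 52.1 and 54.5 FPKM to 50.6, 52.6 and 48.8 in vehicle and from 49.0, 52.4 and 51.9 to 51.2, 52.8 and 52.9 with CP25. The values of WDR75 were close in all 12 libraries, and its groups overlapped.

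UTP20 depended most on single libraries. It gave 16.4, 15.0 and 17.8 FPKM in vehicle at 0 h and 11.3, 18.3 and 13.3 at 2 h, and with CP25 14.8, 14.6 and 16.8 against 11.7, 20.2 and 12.7. The libraries numbered 2 were the highest of all 6 in each treatment and the others lay below the 0 h range, so 87.3% and 96.6% became 75.2% and 79.3% without them. DDX10, a helicase of the processome, stood at 105% and 111%, from 28.6, 36.5 and 34.8 FPKM to 34.7, 37.3 and 32.7 in vehicle and from 31.4, 34.2 and 37.1 to 36.1, 39.9 and 37.7 with CP25, with overlap in both. UTP6 was higher at 2 h in every library, at 113% and 117%. NOP14, UTP3, DDX47 and DDX52 stood between 93.0% and 108%, and without the libraries numbered 2 at 2 h NOP14 was at 89.2% and 97.1%.

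Late 40S factors had a median ratio of -0.41 in vehicle and -0.36 in CP25, next to -0.31 and -0.34 for the RNA polymerase I role, and 4 of 7 were below the median of all genes. The order of these roles in CP25 turned without the libraries numbered 2 at 2 h, with -0.35 for late 40S factors and -0.44 for RNA polymerase I, while in vehicle late 40S factors stayed the lower, at -0.44 against -0.36. BYSL, the bystin protein of 40S precursors, was the lowest. It measured 28.9, 32.7 and 35.3 FPKM in vehicle at 0 h and 15.1, 20.9 and 17.8 at 2 h, and with CP25 29.6, 31.7 and 36.8 against 15.0, 17.8 and 17.2. No groups overlapped, and it stood at 55.4% and 51.0%. RRP12 read 18.7, 20.3 and 23.4 FPKM in vehicle at 0 h against 11.7, 18.1 and 14.4 at 2 h, and 17.9, 17.5 and 22.2 with CP25 against 10.9, 17.2 and 14.2, which is 70.7% and 73.4%, or 62.6% and 65.4% without the libraries numbered 2 at 2 h. Its groups were apart by a small margin, with the 2 h library numbered 2 nearest to the 0 h values.

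NOB1, the endonuclease that trims the end of 18S ribosomal RNA, stood at 74.6% and 77.3%, and RIOK2, a kinase of late 40S precursors, at 73.9% and 68.7%, both without overlap. LTV1, PNO1 and RIOK1, which bind or release the same particles, stood between 97.7% and 108% and overlapped. Without the libraries numbered 2 at 2 h LTV1 stood at 92.6% and 97.2%.

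The maturation factors of the 60S subunit held the widest range, from 45.1% to 125% in vehicle, with 6 of 13 below the median of all genes in both treatments. RRS1, which helps to load 5S ribosomal RNA, was the lowest of all 50 members. It measured 36.9, 37.0 and 40.9 FPKM in vehicle at 0 h and 15.6, 20.5 and 15.7 at 2 h, and with CP25 34.9, 33.6 and 42.2 against 13.9, 21.3 and 15.8. The groups lay far apart in both treatments, at 45.1% and 46.1%, and still 5.57% of all genes had a lower mean ratio. NOP2, a cytosine methyltransferase of ribosomal RNA, measured 64.4, 61.4 and 70.0 FPKM in vehicle at 0 h and 33.9, 40.9 and 38.6 at 2 h, and with CP25 66.5, 59.5 and 69.2 against 33.1, 43.4 and 40.2. It stood at 57.9% and 59.8%, without overlap. In GENCODE 29 an unnamed gene on the same strand overlaps 83.5% of the NOP2 transcript.

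BOP1, PES1 and WDR12 form 1 complex, yet their mRNAs ended at different levels. BOP1 read 51.2, 58.4 and 67.7 FPKM in vehicle at 0 h against 38.7, 43.3 and 44.9 at 2 h, and 54.1, 61.3 and 64.3 with CP25 against 36.5, 41.2 and 42.2, or 71.6% and 66.7%. WDR12 read 46.6, 49.5 and 47.8 FPKM against 54.8, 62.4 and 52.1 in vehicle, and 48.1, 50.6 and 51.3 against 55.7, 62.0 and 56.1 with CP25, or 118% and 116%. BOP1 was lower and WDR12 higher in every 2 h library of both treatments, while PES1 stood at 100% and 102% and overlapped.

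EBNA1BP2, a pre-60S assembly factor, was among the 5 highest members, at 125% and 126%. It gave 97.8, 121.3 and 125.1 FPKM in vehicle at 0 h and 146, 152 and 130 at 2 h, and with CP25 103, 116 and 129 against 141, 151 and 147, so that no groups overlapped. RRP1, a factor of the large subunit precursors, gave 53.7, 56.2 and 61.2 FPKM against 36.2, 42.7 and 39.3 in vehicle, and 51.5, 51.6 and 59.8 against 32.7, 41.5 and 38.6 with CP25, or 69.1% and 69.3% without overlap. GNL3, the GTP-binding protein nucleostemin, stayed level at 97.1% and 102%, from 145, 156 and 149 FPKM to 147, 150 and 139 in vehicle and from 142, 150 and 154 to 152, 146 and 155 with CP25. NOP16 was low at 73.1% and 73.5%, RRP1B stood at 86.1% and 87.3%, NIP7 and MRTO4 lay between 93.5% and 101%, and DDX18 at 120% and 121%.

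A list of 84 other ribosome biogenesis factors, drawn from the same pathway, ran from 33.0% to 145% of the 0 h level in vehicle, against 45.1% to 144% for the 50 members. Its median ratio was -0.10 in vehicle and -0.12 in CP25, and 26 of the 84 were lower in both treatments without overlap, against 39.5% of all genes, while 10 were higher, against 11.6%.

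CP25 against vehicle was tested with limma on log2(FPKM + 1) across all genes of a table. At 0 h no member passed, 0 of 50, against 0% of 12365 genes. At 2 h no member passed, against 0.00851% of 11745 genes, and for the difference between the effects at 2 h and at 0 h no member passed either, against 0% of 12183. Every member's Benjamini-Hochberg adjusted p was 1 at 0 h and at 2 h in limma and 0.9998 for the difference. At an unadjusted p under 0.05 the count was also 0 of 50 in all 3 contrasts, where 0.348% of genes were higher and 0.364% lower at 0 h, 0.383% and 0.358% at 2 h, and 0.772% and 0.484% for the difference. So few genes reached such a p in this fit, which leaves out the library number, that 0 of 50 says little about the members. The shares with the library number as a block are given below. The authors' deposited table gave 0 members with a p-value under 0.05 as well, and its smallest were 0.296 for RRP12 at 0 h and 0.298 for DDX10 at 2 h.

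The estimates lay close to zero. The members' median log2 difference was -0.01 at 0 h, 0.02 at 2 h and 0.02 for the difference between times, and that of all genes -0.004, 0.01 and 0.01 in the same order. With 1 library left out, the members' median ran from -0.06 to 0.05 at 0 h and from -0.06 to 0.08 at 2 h. For the difference it ran from -0.06 to 0.08. The signs of these medians therefore depend on single libraries. At 0 h values ran from -0.11 for RRP12, with a 95% interval of -0.38 to 0.16, to 0.07 for NHP2, and 19 of 50 were above zero against 47.5% of genes. At 2 h they ran from -0.09 for BYSL to 0.12 for DDX10, whose interval was -0.06 to 0.29, and 28 of 50 were above zero against 53.7%. For the difference between times they ran from -0.10 for BOP1, with an interval of -0.43 to 0.22, to 0.13 for NOP14, with -0.26 to 0.52, and 33 of 50 were above zero against 53.6%.

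RRN3 was the only member whose CP25 and vehicle libraries did not overlap at 0 h, against 1.23% of genes with CP25 higher and 2.85% with CP25 lower. Its values, given above, differed by 0.06 on the log2 scale with an interval of -0.06 to 0.19, and 3 libraries against 3 cannot reach an exact permutation p below 0.1. At 2 h no member was without overlap, against 2.47% higher and 1.75% lower among all genes. Of the members with the smallest p, RRP12, UTP20 and RRP1 were below zero at 0 h, and RRN3, WDR12 and DKC1 above. At 2 h BOP1, BYSL and RRP1 were below zero and DDX10, NPM1 and GNL3 above. For the difference these were BYSL, BOP1 and UBTF below, and WDR75, NOP56 and POLR1E above. All their intervals spanned zero.

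The width of the intervals differed by contrast. They describe spread among these libraries, which may be technical only, so they cannot exclude a change between cultures. Each is for a single gene, with no allowance for the number of intervals. At 0 h and at 2 h the 95% intervals of all 50 members lay within 1.5-fold in either direction, against 95.6% and 96.3% of all genes. For the difference between times 49 of 50 did, against 86.7% of genes, and the exception was UTP20, whose interval ran from -0.46 to 0.71. Within 1.25-fold lay 43 members at 0 h, against 71.9% of genes, 34 at 2 h, against 67.1%, and 15 for the difference, against 31.0%. With the library number as a block all 50 intervals were within 1.25-fold in each contrast, a share not taken over all genes. RRP12 at 0 h and DDX10 at 2 h then had unadjusted limma p-values of 0.0437 and 0.0341 with adjusted p of 0.707 and 0.716. Blocked values at 0 h are printed because deviations of these members went together by number. Over all genes the correlation of the 0 h libraries numbered 2 was -0.01. The choice of block at 0 h thus came from the values it is applied to. With the library number as a block, 6.93% of all genes at 0 h and at 2 h had an unadjusted p under 0.05, and 1 of 50 members in each. For the difference between times 10.5% of all genes did, and 0 of 50 members.

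**Figure D4:**
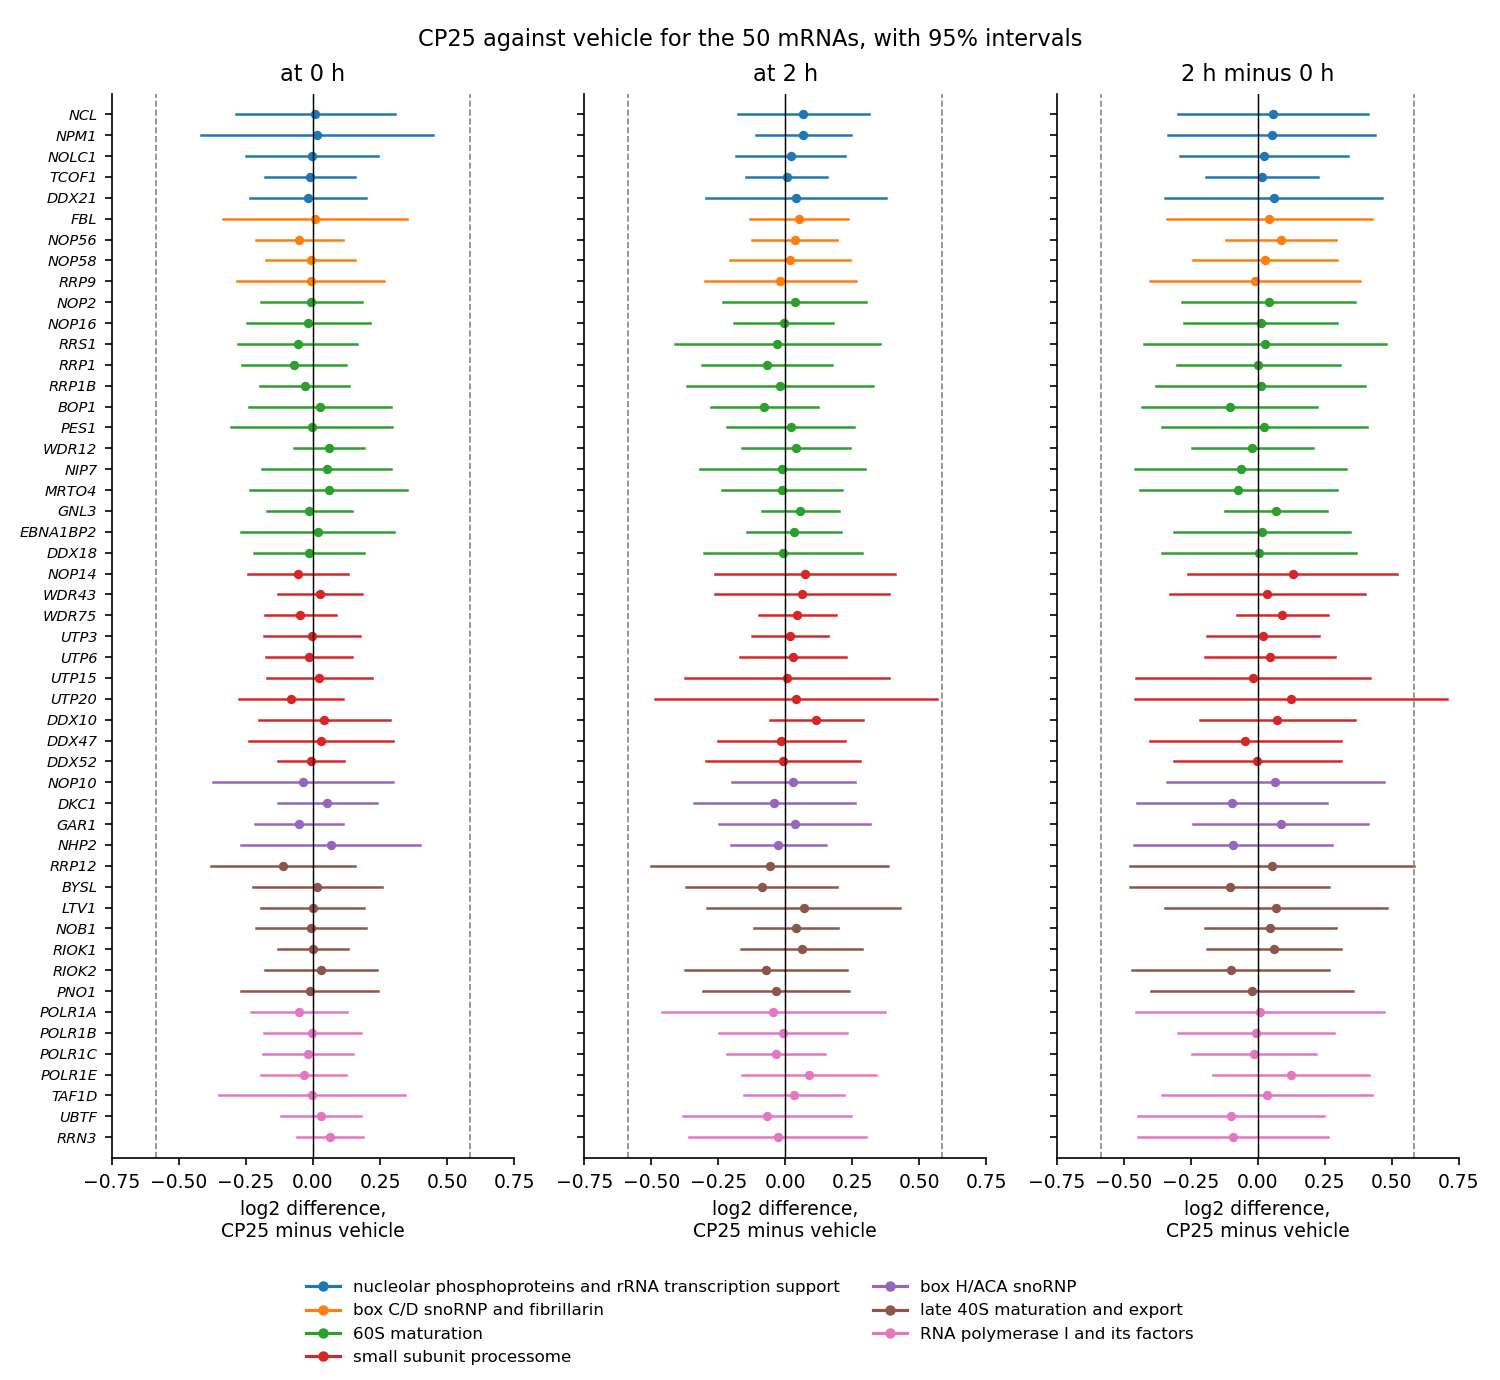
Log2 difference of CP25 minus vehicle for the 50 mRNAs at 0 h, at 2 h and for 2 h minus 0 h, as points with 95% limma intervals without the replicate block, coloured by role. Dashed lines mark a 1.5-fold difference in either direction. All intervals span zero, and 1 of 150 crosses a dashed line, that of UTP20 in the panel of 2 h minus 0 h.

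Features that the choice of members did not use were set beside the ratio of 2 h to 0 h after those ratios had been seen. Levels and ratios went together, with Pearson's r 0.57 between the log2 level in CP25 at 0 h and the ratio in vehicle over the 50 members, against 0.28 over all 12183 genes. The share of G or C at the last base of codons, which is a known correlate of mRNA stability in human cells, went the other way, with r of -0.46 in vehicle and -0.48 in CP25 over the 50 members and -0.25 and -0.33 over 10839 genes. The 25 members with the lower share had a median ratio of 0.03 in vehicle and 0.06 in CP25, and the 25 with the higher share -0.24 and -0.21. The points share their 12 libraries, and GC content of the whole transcript also went with the spread between libraries. For the libraries numbered 3 at 2 h Spearman's rho was 0.53 across members and also 0.53 over 10839 genes. Length of the 3′ untranslated region showed r of only 0.09 and 0.06.

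**Figure D5:**
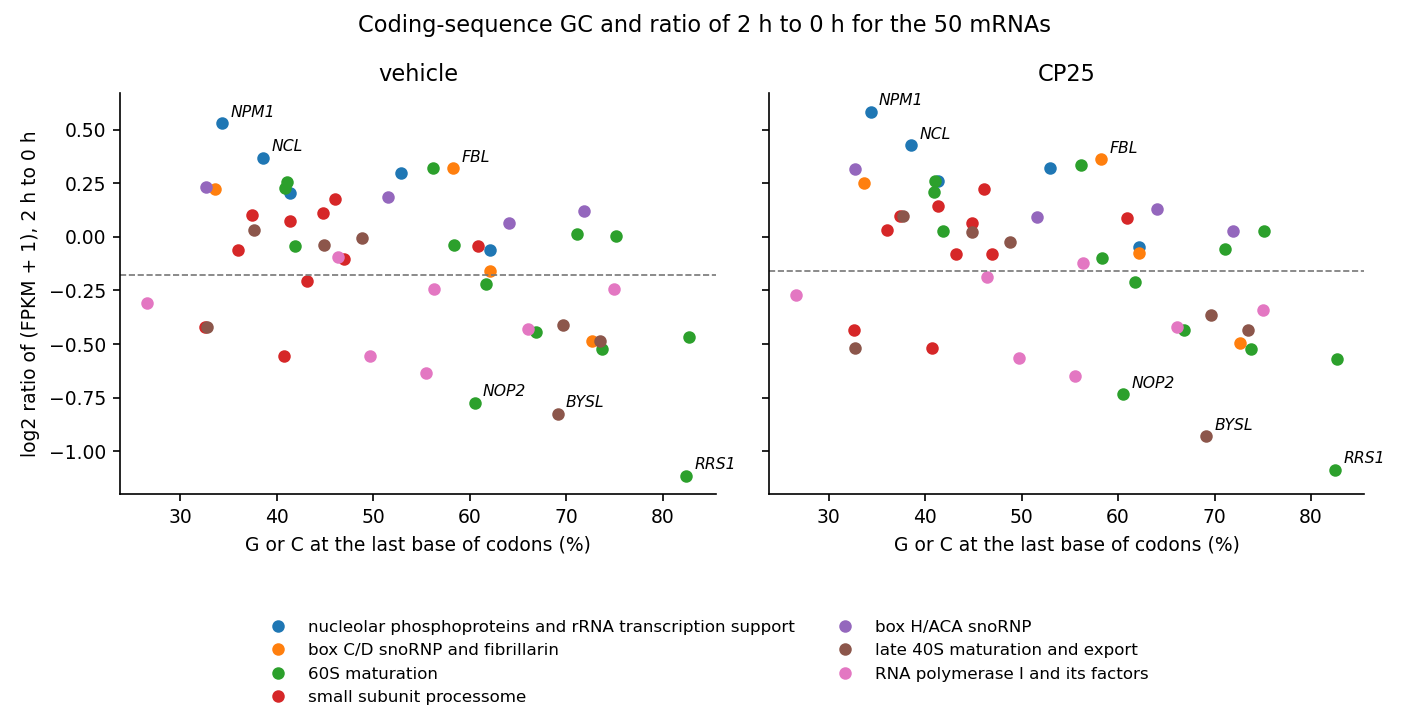
Share of G or C at the last base of codons (%) against the log2 ratio of (FPKM + 1) at 2 h to 0 h for the 50 mRNAs in vehicle and CP25, coloured by role. The dashed line is the median of all genes, -0.18 in vehicle and -0.16 in CP25. RRS1 and BYSL combine a high share with a low ratio, NPM1 and NCL a low share with a high ratio, and r is -0.46 and -0.48.

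Promoters are shown for the E-box CACGTG, the site that MYC and its relatives bind and that reads the same on both strands. In RefSeq windows from 250 bases before to 50 bases after the start it was found in 16 of 40 members with an entry, or 40%, against 12.97% of 8933 genes tested and 8.78% of 27305 genes in the table. A match is a description of the letters, and no binding was measured. The windows of 4 members are printed because their ratios lay apart, FBL among the highest members, BYSL and NOP2 among the 5 lowest and RRP9 the lowest of the box C/D proteins. The E-box is in capitals.
FBL: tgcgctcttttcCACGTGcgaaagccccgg
BYSL: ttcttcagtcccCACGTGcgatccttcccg
NOP2: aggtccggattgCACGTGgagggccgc
RRP9: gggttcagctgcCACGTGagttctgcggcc

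In GRCh38.p14 these lie at chr19:39846356-39846385 on the minus strand for FBL, chr6:41921515-41921544 on the plus strand for BYSL, chr12:6568242-6568268 on the minus strand for NOP2 and chr3:51941892-51941921 on the minus strand for RRP9. Counted from the first base of the transcript as 1, the E-box begins at 7 in FBL, 29 in BYSL and 36 in NOP2, and 5 bases before the start in RRP9. For members with the E-box the median ratio was -0.0002 in vehicle and 0.03 in CP25, and the 24 without it -0.10 and -0.09. Both sets ranged widely, from 55.4% to 125% with it and from 63.6% to 144% without.

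In the 3′ untranslated regions, taken from 1 principal GENCODE 29 transcript per gene, 2 short motifs of mRNA decay were searched on the mRNA strand. TATTTAT, the core of AU-rich elements, was found in 7 of 50 members, or 14%, against 33.8% of 10839 genes, where the median region was 514 bases in members and 1159 bases in all genes. The median ratio of these 7 was -0.004 in vehicle and -0.03 in CP25, and that of the other 43 was -0.06 in both. Of the 7, 3 were above zero in both treatments and 4 below. TGTANATA, the site of Pumilio proteins, was found in 10, or 20%, against 28.9%. Among those 10 are POLR1A, POLR1C, UBTF and RRN3 of the RNA polymerase I role. The median ratio of the 10 was -0.33 in vehicle and -0.38 in CP25, and that of the other 40 was -0.04 and -0.0009. DDX18, LTV1 and WDR12 carry the site and had ratios above zero in both treatments. Sites are shown for BYSL, the only AU-rich match among the 5 lowest members, and for POLR1C, the only Pumilio match among them, with the motif in capitals.
BYSL: ggataaaggcaaagacagaTATTTATtgaa
POLR1C: aaggccttagaTGTAAATAaactcacccaa

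The BYSL window lies at chr6:41933017-41933046 and that of POLR1C at chr6:43521475-43521504 in GRCh38, both on the plus strand and both in the 3′ untranslated region close to its annotated end, with 4 and 33 bases between the motif and the annotated end. A match is a description of letters, and no binding was measured.

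The genes of 7 members, NCL, NOP56, NOP58, DKC1, WDR43, TAF1D and GNL3, contain annotated small nucleolar RNA genes, from 2 in DKC1 to 8 in TAF1D. The median ratio of these host mRNAs was -0.04 in vehicle and 0.03 in CP25, against -0.06 in both treatments for the other 43. NCL and NOP58 were higher at 2 h without overlap in both treatments, WDR43 was lower, and the rest overlapped in at least 1 treatment.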

How the data were processed

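Poly(A) RNA of 12 HEK293T libraries was sequenced, 3 per group. The authors deposited FPKM per gene and library in 1 table per time, and, per the submitters' processing notes, used CASAVA 1.8.2, Trimmomatic 0.36 and Bowtie2 2.2.3 with hg19. How FPKM was computed, and on which annotation, is not given in the sources used here. A p-value per gene was deposited by the authors for CP25 against vehicle at each time and was taken as unadjusted. Depth is an estimate, since the values are not counts.

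Here log2(FPKM + 1) was fitted with limma 3.58.1 in R 4.3.3 (trended moderated variance, genes averaging 1 FPKM or more in the fit, Benjamini-Hochberg at 0.05), within each table, with a 12-library fit for the difference of effects. Fits were checked on simulated data, with noise drawn independently for each library. That noise had no part shared by library number, so the check does not cover the shared deviations seen here. Ratios of 2 h to 0 h had no test. Alternatives were a pseudocount of 0.1, no filter or a filter at 5 FPKM, median centring, quantile normalization, the replicate block, leaving out each library, and the deposited p-values. Members, lists, motifs and the rule for printing library values (pathway landmarks, smallest p per contrast, extremes of ratio and of level) were chosen with earlier results of these data known.

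Numbering was checked for pairing by correlating deviations from group means across genes. Same-numbered libraries gave 0.26, -0.01 and 0.12 at 0 h and 0.35, 0.45 and 0.15 at 2 h, so by the rule of all above 0.1 over all genes they pair at 2 h, and 1 pair missed it at 0 h. Over the 50 members alone every same-numbered pair was above it, at 0.81, 0.64 and 0.70 at 0 h and 0.84, 0.91 and 0.60 at 2 h, so for these genes the blocked values are printed at both times. Some pairs of different numbers passed 0.1 too, at 0.20 and 0.18 over the members at 0 h and 0.23 at 2 h. Over all genes such pairs reached 0.13 at 0 h and 0.11 at 2 h. Passing 0.1 is therefore not particular to same-numbered libraries. The source of the pairing is the data, since the labels give only a number.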

Additional observations from a re-analysis of the deposited data

How the results depend on the processing

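No member was called under any alternative run. Leaving out a replicate gave 1 to 4 genes called at 0 h against 0, 1 to 7 at 2 h against 1, and 0 to 3 for the difference against 0, all small RNA genes. The authors' deposited p-values gave 0 at 2 h. With the replicate block 0, 1 and 0 genes were called. Over the members alone same-numbered libraries deviated together at both times, and the block changed no call of a member at either.

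The members' median ratio in vehicle, 0.13 above all genes, was 0.0041 without the filter on low values, which lets in more genes near 0 and raises the median of all genes to -0.06. In CP25 it was -0.01 without the filter, and with a filter at 5 FPKM 0.07 and 0.06. The count of members below -1 was 0 in both treatments with libraries centred on their median, which moves the median of all genes to 0.17, and 0 to 1 in CP25 with a replicate left out, the 0 arising when the CP25 library numbered 3 at 0 h or the one numbered 1 at 2 h was dropped. Centring turned the sign of 15 members in vehicle and 11 in CP25. Of 1092 alternative CP25 effects of the named members none was called, with the smallest limma adjusted p 0.53, and 52 of 624 ratios moved by more than the spread between libraries.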
